A study of Mus musculus with 6 samples.

Results

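Speer genes form a multicopy family of mouse autosomes, known from testis as transcripts of germ cells that encode proteins rich in glutamate. The 8 genes described here were chosen by symbol: Speer2, Speer3, Speer4a, Speer4b, Speer4c, Speer4d, Speer4e and Speer4f, out of 25165 gene symbols measured. Of these, 7 were found under that symbol. Speer4f is a RefSeq synonym of Speer4f1, whose values were used for it. The data are RNA levels in whole testes of 8-week-old C57BL/6 mice, 3 libraries titled KO and 3 titled WT. Teshl is a testis RNA that codes for no protein (RefSeq transcript NR_038002, gene 1700027A15Rik). The study deleted it and asked about Y-linked multicopy genes and offspring sex. In all 6 libraries the genotype field says the opposite of the title. It reads wild type where the title is KO, and NR_038002-/- where the title is WT. The level of the deleted gene goes with the titles. It was at 0.385 FPKM in titled KO replicate 1, listed at 0 in replicates 2 and 3, and at 1028, 989 and 1081 FPKM in the libraries titled WT. Every difference below is therefore titled KO minus titled WT. FPKM are fragment numbers divided by transcript length and by the size of the library. The labels do not tell whether replicates were different mice. A p-value here therefore sets the difference between the groups only against the spread of these libraries, and that spread may be technical.

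Speer genes are related to Dlg5, a scaffold gene of cell junctions, and have multiplied on chromosome 5. Spermatids express several large families of copied genes, on the X and Y chromosomes and on autosomes. Sly on the Y chromosome and Slx and Slxl1 on the X chromosome are the best known of them, and Sly acts on the expression of other spermatid genes. Because copies share sequence, a short read often matches several of them, and the level of a single copy depends on how such reads were divided.

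Of the 8 genes, 7 lie on chromosome 5 and Speer2 lies on chromosome 16. In GENCODE M21 (GRCm38, the assembly of mm10), Speer2 spans chr16:69856874-69863744. Speer3 spans chr5:13791619-13796820, Speer4e chr5:14933221-14938429, Speer4d chr5:15619064-15623864, Speer4c chr5:15709501-15714271 and Speer4f1 chr5:17476098-17480936. Speer4a and Speer4b lie farther along, at chr5:26032846-26039558 and chr5:27495639-27501438. All 8 are annotated as protein-coding, with 5 exons in the transcript with the longest coding sequence, or 6 in Speer2. The coding sequences have 636 (Speer4d) to 801 (Speer4a and Speer4b) bases.

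The start of the coding sequence shows how alike the Speer4 copies are. The first 60 coding bases of 5 members from GENCODE M21 transcripts are given here 5′ to 3′, with capitals for bases that differ from Speer4a.
Speer4a: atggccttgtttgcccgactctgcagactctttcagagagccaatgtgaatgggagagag
Speer4b: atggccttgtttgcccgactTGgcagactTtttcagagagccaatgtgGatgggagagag
Speer4c: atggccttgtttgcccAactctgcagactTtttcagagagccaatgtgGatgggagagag
Speer4e: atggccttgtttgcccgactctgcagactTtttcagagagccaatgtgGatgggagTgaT
Speer4f1: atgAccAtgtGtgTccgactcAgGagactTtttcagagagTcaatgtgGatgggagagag
Speer4b and Speer4e differ from Speer4a at 4 of these 60 bases, Speer4c at 3 and Speer4f1 at 9. The annotated coding sequence of Speer4d begins at another codon and is not shown.

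Over whole coding sequences the members fell into groups. Speer4c was 98.3% identical to Speer4d and 97.5% identical to Speer4e in the aligned part. Speer4a and Speer4b were 95.1% identical. Speer4f1 stood apart from the other Speer4 members, at 84.6% to 86.1%, and its nearest copy was Speer4f2, at 98.8%. Speer2 and Speer3 were 90.4% identical to each other and between 73.1% and 78.9% to the Speer4 members.

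**Figure D1:**
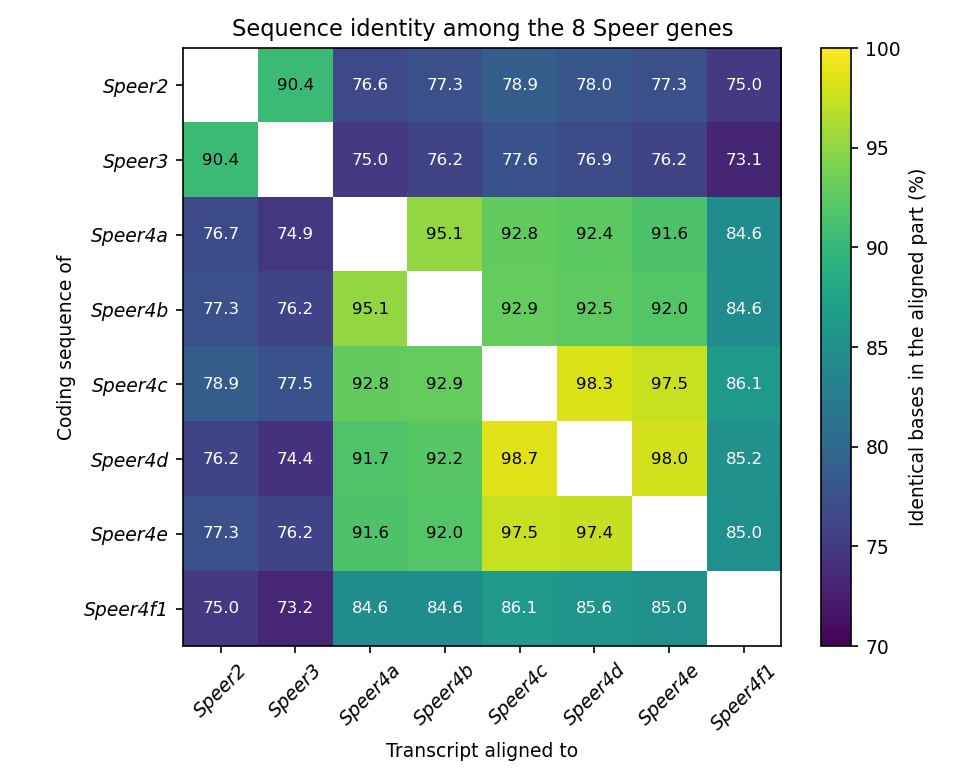
Identity, in percent of aligned bases, between the coding sequence of each member (rows) and the transcript of each other member (columns). The block of Speer4c, Speer4d and Speer4e lies at 97.4% to 98.7%, and Speer2 and Speer3 are alike at 90.4%.

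The region around the annotated start was also shared. From RefSeq promoters (GRCm38.p6, 250 bases before to 50 after the start), 50 bases of 7 members are given on the strand of the gene, with an 8-base element in capitals. It is TGATGTCA in all but Speer4b and resembles the cAMP response element TGACGTCA, which the factor CREM binds in spermatids.
Speer3 (chr5:13791547-13791596, plus strand): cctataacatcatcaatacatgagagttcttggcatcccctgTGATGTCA
Speer4a (chr5:26039546-26039595, minus strand): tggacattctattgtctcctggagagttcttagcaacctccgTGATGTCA
Speer4b (chr5:27501430-27501479, minus strand): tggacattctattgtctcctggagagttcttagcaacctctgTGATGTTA
Speer4c (chr5:15714265-15714314, minus strand): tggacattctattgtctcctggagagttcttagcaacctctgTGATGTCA
Speer4d (chr5:15619021-15619070, plus strand): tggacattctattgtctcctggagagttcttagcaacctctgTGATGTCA
Speer4e (chr5:14938469-14938518, minus strand): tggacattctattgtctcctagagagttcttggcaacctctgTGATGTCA
Speer4f1 (chr5:17476015-17476064, plus strand): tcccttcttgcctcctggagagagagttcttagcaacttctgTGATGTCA
The stretches of Speer4c and Speer4d are the same in every base. The annotated starts of the copies differ: the element ends 57 bases before the RefSeq start in Speer4f1 and 22 bases before it in Speer3, and reaches 7 bases past it in Speer4c and Speer4e. By the GENCODE M21 spans above, the element lies inside the transcript in Speer4a and Speer4b and reaches into it in Speer4c and Speer4d. It lies before the GENCODE start in Speer3, Speer4e and Speer4f1. TGATGTCA or its reverse complement TGACATCA was found in 7 of the 8 member promoters and in 3.62% of 32851 promoters of the same length. Speer4b held only the reverse complement, elsewhere in the window, and Speer2 held neither. TGACGTCA itself was in 0 of the 8 and in 1.79% of all promoters. The motif was chosen after these sequences were read, and a match is a description of the letters only.

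How much of each gene can be told from other genes was measured on the longest transcript. Every window of 50 bases and of 100 bases was looked up in all GENCODE M21 transcripts, on both strands. In Speer2, 94.3% of the 50-base windows and 100% of the 100-base windows occurred in no other gene, and in Speer3 84.7% and 100%. In Speer4c these shares were 9.55% and 25.9%, the lowest of the 8. In Speer4d they were 30.9% and 50.4%, and in Speer4e 41.8% and 64.4%. Speer4a (51.0% and 78.4%), Speer4f1 (52.0% and 76.7%) and Speer4b (61.2% and 93.0%) lay between. Most of Speer2 and Speer3 is thus sequence of their own, and most of Speer4c is shared with other genes. Windows of Speer4c that overlap the antisense gene Speer4cos count as shared, though Speer4cos lies on the opposite strand of the same place. The overlap is 335 of the 1194 exon bases of Speer4c, and percentages without Speer4cos were not computed. No source used here gives the read length or how reads with several matches were treated.

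**Figure D2:**
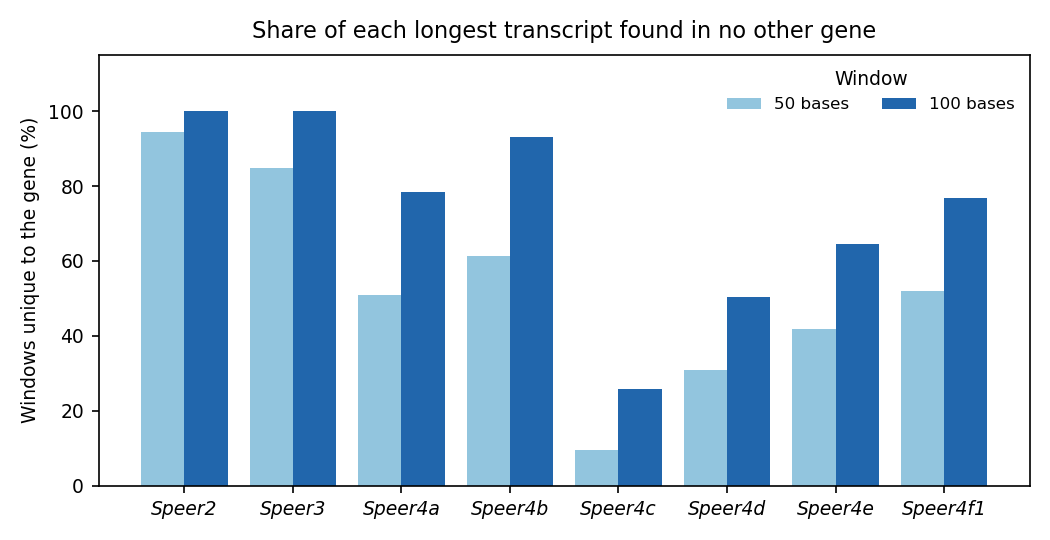
Percent of windows of 50 bases (light bars) and 100 bases (dark bars) in the longest transcript of each member that occur in no other gene. Speer4c has the lowest bars, at 9.55% and 25.9%, and the 100-base bars of Speer2 and Speer3 reach 100%. Overlap of Speer4c with the antisense gene Speer4cos counts as shared.

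The 6 libraries held 27600000 to 39200000 fragments by the spacing of their lowest values, and summed to between 393622 and 413604 FPKM. At these depths 3 fragments on a transcript of 1 kb equal 0.0766 to 0.109 FPKM, for counting error only. All 8 members lay well above that in every library and passed the filter of a mean of 1 FPKM in a group. The tissue label was checked with marker lists: spermatocyte markers summed to 300 to 321 FPKM, and elongating spermatid markers to 26380 to 33564 FPKM. Of the 6 elongating spermatid markers limma called 0, with 4 higher and 0 lower at an unadjusted p below 0.05. Of all 12952 tested genes, 697 were higher and 1152 lower at that threshold. Markers of epididymal epithelium summed to 2.95 to 3.90 FPKM with Lcn5 listed at 0 throughout. The elongating spermatid sum was 31529 to 33564 FPKM in titled KO against 26380 to 30205 FPKM in titled WT, without overlap. Among single genes, 21.7% of all tested had no overlap. Round spermatid markers, with 5 of 6 in the tables, summed to 510 to 628 FPKM in titled KO against 500 to 580 FPKM in titled WT. Median log2 fold changes of tested markers were 0.16 in elongating spermatids, 0.07 in round spermatids, -0.02 in spermatocytes and -0.15 in spermatogonia. They were -0.07 in Sertoli cells, -0.11 in Leydig cells and -0.07 in macrophages, beside -0.04 over all tested genes. The part of cell makeup in the Speer levels was not tested, and in whole testis fewer cells of a type and less RNA per cell cannot be told apart.

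No Speer gene passed the test between titled KO and titled WT. By limma on log2(FPKM + 1), 0 of 8 were called higher and 0 lower at a Benjamini-Hochberg adjusted p below 0.05, and 0 reached an unadjusted p below 0.05. Among all 12952 tested genes 0.788% were called higher, 0.363% lower, and 14.3% had an unadjusted p below 0.05. These are 102 and 47 genes, or 121 and 33 with upper-quartile scaling. They numbered 49 and 24 without titled KO replicate 2, 54 and 23 without titled KO replicate 3, and 52 and 29 without titled WT replicate 1. Without titled WT replicate 2 they were 67 and 33, and without titled WT replicate 3 they were 184 and 49. For all 8 members the libraries of the groups overlapped, whereas 21.7% of all tested genes had no overlap. With 8 genes these counts do not set the family apart from other genes. The log2 fold changes ran from -0.05 to 0.28 with a median of 0.04, and 6 of 8 were positive. The median of all tested genes was -0.04, and 4438 of 12952 were positive. Several of the 8 are near copies, so their signs are not independent. Summed over the 8 genes, the level was 64.5, 81.5 and 69.4 FPKM in titled KO replicates 1, 2 and 3. In titled WT it was 61.1, 72.0 and 75.5 FPKM. The ratio of the group means was 1.03 (71.8 ± 8.73 against 69.6 ± 7.52 FPKM, SD, n = 3 each), a difference smaller than either SD.

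**Figure D3:**
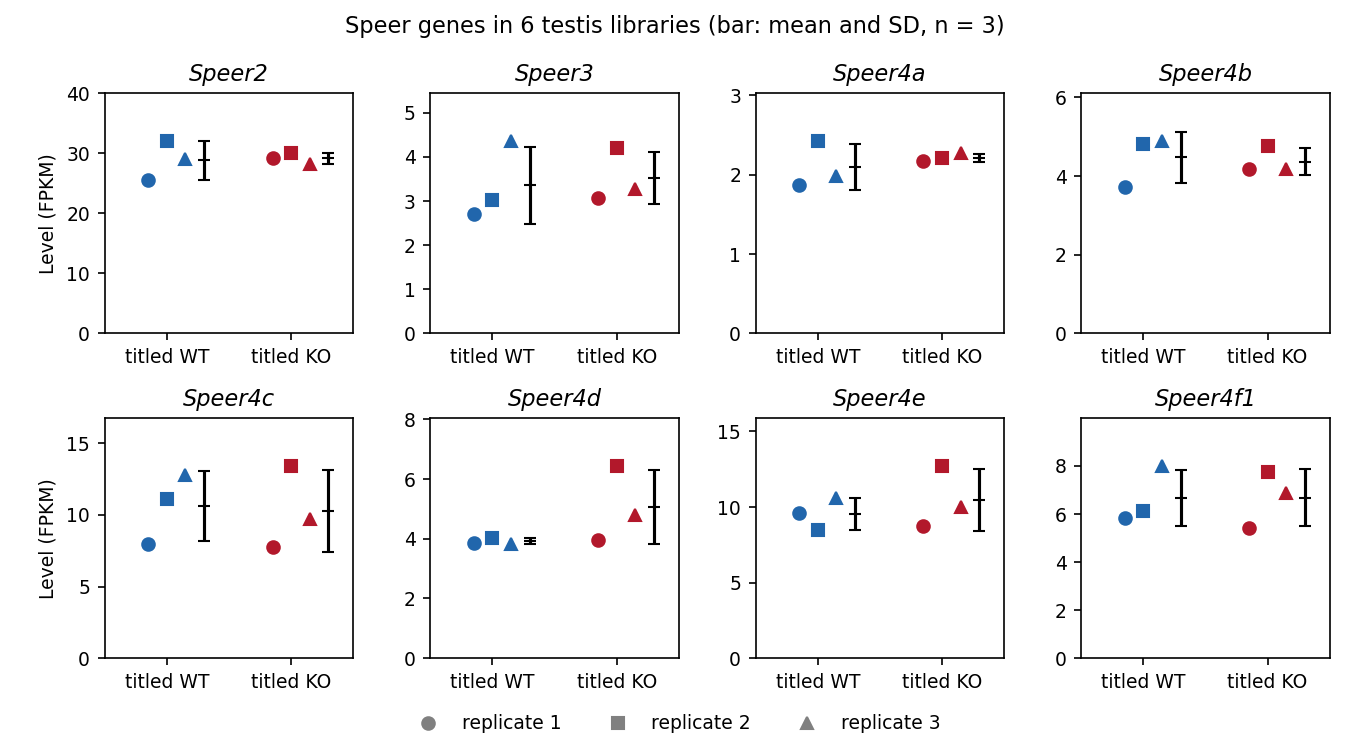
Level of each member in FPKM (vertical axis, from 0, with its own range in each panel) in the 3 libraries titled WT (blue) and the 3 titled KO (red). Symbols mark the replicate and the black bar the mean and SD. The groups overlap in all 8 panels, and titled KO replicate 2 is the highest of its group in 7 of them.

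Speer2, the member outside chromosome 5, was the most abundant. It was at 29.2, 30.0 and 28.3 FPKM in titled KO replicates 1, 2 and 3, and at 25.5, 32.0 and 29.1 FPKM in titled WT. All values titled KO lay inside the range of titled WT. Speer2 made up 41.1% of the summed level of the 8 genes on average. Its log2 fold change was 0.02 (SE 0.08, 95% confidence interval -0.16 to 0.19, limma adjusted p = 0.923), which allows from 0.896-fold to 1.14-fold on the FPKM + 1 scale. About 788 fragments or more lay behind each value, the most of the 8 genes.

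Speer3, its nearest relative among the 8, had a mean of 3.44 FPKM over the 6 libraries against 29.0 FPKM for Speer2. It was at 3.08, 4.20 and 3.28 FPKM in titled KO against 2.70, 3.02 and 4.35 FPKM in titled WT. Replicate 2 of titled KO and replicate 3 of titled WT stood above the rest, and the groups overlapped. The log2 fold change was 0.06 (SE 0.15, 95% confidence interval -0.28 to 0.41, limma adjusted p = 0.846).

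Speer4a had the lowest level. It was at 2.17, 2.21 and 2.27 FPKM in titled KO against 1.87, 2.42 and 1.99 FPKM in titled WT. The log2 fold change of this gene was 0.06 (SE 0.08, 95% confidence interval -0.12 to 0.24, limma adjusted p = 0.721). The near copy Speer4b was at 4.18, 4.76 and 4.17 FPKM in titled KO against 3.72, 4.82 and 4.88 FPKM in titled WT. Titled WT replicate 1 was the lowest of the 6 libraries for both genes. The log2 fold change of Speer4b was -0.02 (SE 0.10, 95% confidence interval -0.24 to 0.19, limma adjusted p = 0.921).

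In the most alike copies, Speer4c, Speer4d and Speer4e, no group difference passed the test. Speer4c was at 7.73, 13.4 and 9.69 FPKM in titled KO against 7.94, 11.1 and 12.8 FPKM in titled WT. It spanned a 1.74-fold range within the 6 libraries, the widest of the 8 genes, while the group means differed by a factor of 0.970. Its log2 fold change of -0.05 therefore came with a wide interval (SE 0.24, 95% confidence interval -0.65 to 0.56, limma adjusted p = 0.934), which allows from 0.635-fold to 1.47-fold. Speer4e was at 8.74, 12.7 and 9.97 FPKM in titled KO against 9.62, 8.47 and 10.6 FPKM in titled WT (log2 fold change 0.11, SE 0.13, limma adjusted p = 0.684).

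Speer4d had the largest difference of the 8. It was at 3.97, 6.43 and 4.79 FPKM in titled KO against 3.87, 4.03 and 3.84 FPKM in titled WT. The libraries titled WT lay close together, and titled KO replicate 1 lay among them. The log2 fold change was 0.28 (SE 0.13, 95% confidence interval -0.02 to 0.58, unadjusted p = 0.0619 and adjusted p = 0.376 by limma). Without titled KO replicate 2 it was 0.13 (limma adjusted p = 0.765), and without titled KO replicate 1 it was 0.42 (limma adjusted p = 0.127). Leaving out any other single library gave 0.27 to 0.31. Speer4f1 was at 5.42, 7.75 and 6.89 FPKM in titled KO against 5.85, 6.11 and 7.99 FPKM in titled WT. The log2 fold change of this gene was 0.01 (SE 0.14, 95% confidence interval -0.32 to 0.33, limma adjusted p = 0.986).

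In order of their mean over 6 libraries, the levels were 29.0 FPKM for Speer2, 10.5 for Speer4c, then Speer4e (8.47 to 12.7 over the libraries), 6.67 for Speer4f1, 4.49 for Speer4d, 4.42 for Speer4b, 3.44 for Speer3 and 2.15 FPKM for Speer4a. The ranges of neighbours in this order overlapped, except between Speer2 and Speer4c, between Speer4e and Speer4f1, and between Speer3 and Speer4a. These levels depend on the transcript lengths that the authors used. The longest annotated transcript has 2980 bases for Speer4a and 1118 to 2193 bases for the others.

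The sequence relatives widened the view beyond the fixed symbols. Transcripts of 48 other genes without a Speer symbol held a member's coding sequence at 80% identity or more over at least 50% of its length, and 18 of them were in the tables. Of the 17 that passed the filter, limma called 0 higher and 0 lower (1 higher and 0 lower at an unadjusted p below 0.05), with a median log2 fold change of 0.07. The 6 with the highest means were 4933402N22Rik (31.6 FPKM), Gm6455 (24.3 FPKM), Gm6460 (21.5 FPKM), Gm21149 (21.1 FPKM), Gm10354 (20.2 FPKM) and Gm17019 (19.5 FPKM). All 6 had higher means than every member but Speer2, and 4933402N22Rik exceeded Speer2 too. Their log2 fold changes were -0.05, -0.01, -0.12, 0.10, 0.07 and 0.10, and the groups overlapped in each. Gm1979, the one relative with an unadjusted p below 0.05 and chosen for that, was at 2.43, 1.94 and 2.25 FPKM in titled KO against 1.81, 1.38 and 1.90 FPKM in titled WT, without overlap (adjusted p = 0.282 by limma).

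Speer1, on chromosome 5 and 87.7% identical to Speer2, was more abundant than any of the 8. It was at 52.8, 57.8 and 58.4 FPKM in titled KO against 58.3, 52.4 and 57.8 FPKM in titled WT (log2 fold change 0.00, SE 0.06, limma adjusted p = 0.981). Speer4f2 was at 6.34, 8.94 and 6.98 FPKM in titled KO against 7.48, 6.87 and 9.41 FPKM in titled WT (log2 fold change -0.09, limma adjusted p = 0.774). Of the 7 other symbols that start with Speer, 5 passed the filter, and limma called 0 of them (1 higher and 1 lower at an unadjusted p below 0.05). The higher was Speer4cos, which passed the filter only through titled KO. The lower was the non-coding Speer9-ps1, at 1.82, 2.39 and 2.41 FPKM in titled KO against 2.62, 2.54 and 3.07 FPKM in titled WT (log2 fold change -0.22, limma adjusted p = 0.327). The pseudogene Speer5-ps1 was at 5.81 ± 0.708 and 4.98 ± 0.784 FPKM (SD, n = 3 each; limma adjusted p = 0.444). Dlg5 was at 0.757 to 0.831 FPKM in titled KO against 0.818 to 0.999 FPKM in titled WT, under the filter.

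**Figure D4:**
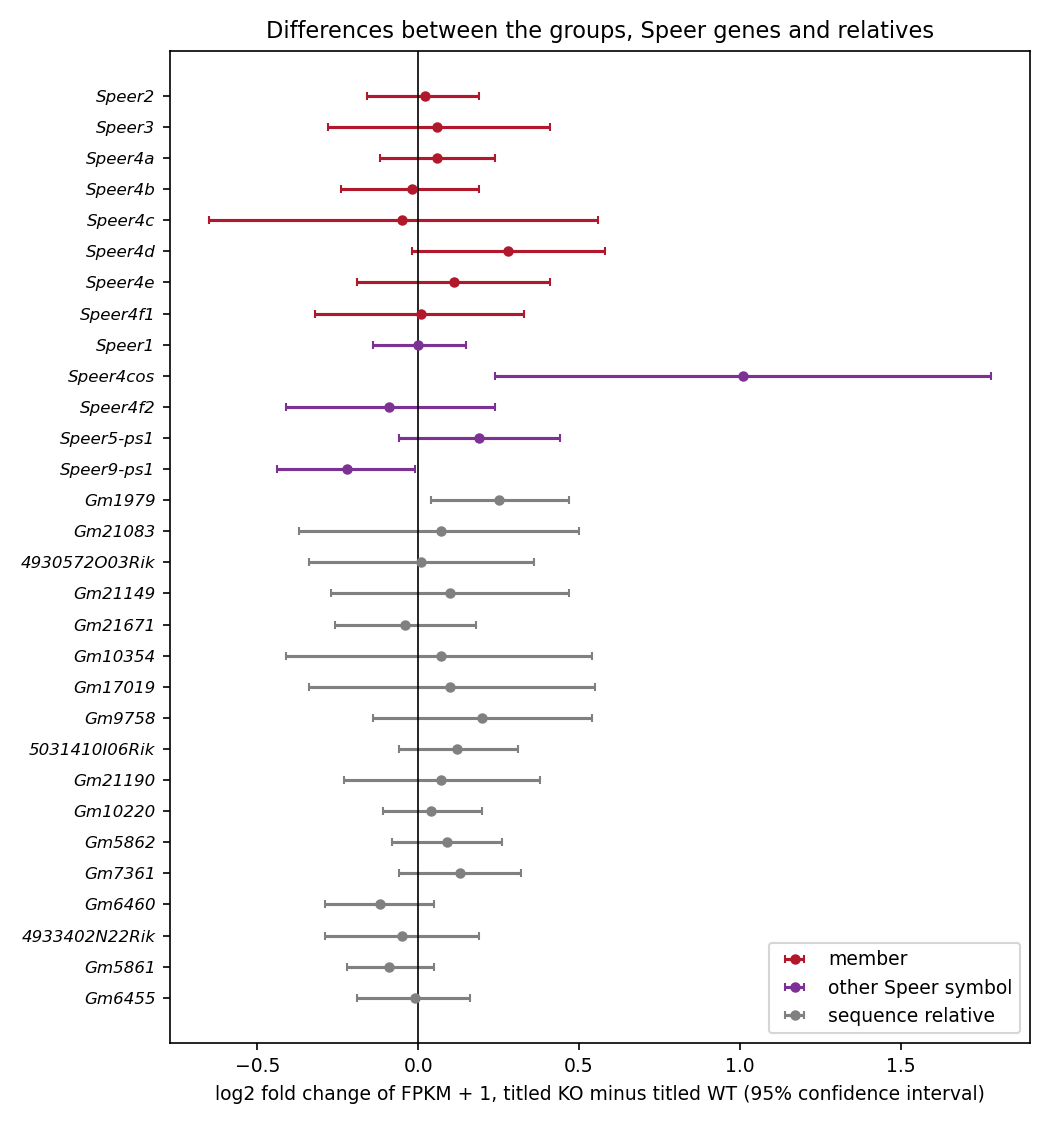
Log2 fold change of FPKM + 1 (horizontal axis, titled KO minus titled WT, with 95% confidence intervals) for the 8 members (red), 5 other Speer symbols (purple) and 17 sequence relatives (grey). All 8 member intervals include 0, and that of Speer4c is the widest among the members.

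The copies nearest to Speer4c, Speer4d and Speer4e were high in the same library. These 3 members and the 7 relatives at 95% identity or more to one of them were each highest in titled KO replicate 2, at 1.27 to 1.43 times their own mean over the 6 libraries. Of these 10 genes, 9 were lowest of titled KO in replicate 1, and 9 were highest of titled WT in replicate 3. The share of all tested genes that were highest in titled KO replicate 2 was not counted. Their summed level was 170 FPKM in titled KO replicate 2, against 110 and 122 FPKM in replicates 1 and 3. In titled WT it was 112, 118 and 142 FPKM. The ratio of group means was 1.08 (log2 0.11), and the log2 ratio was -0.10 without titled KO replicate 2. In the Speer4a and Speer4b group, 3 of 9 genes were highest in that library, and the sum was 27.3, 29.5 and 28.8 FPKM in titled KO against 24.5, 26.2 and 28.6 FPKM in titled WT. Speer4f1 and Speer4f2 were both highest in titled WT replicate 3 and next highest in titled KO replicate 2. Near copies share sequence, so their levels are not independent measurements. Titled KO replicate 2 also had the highest total, 413604 FPKM. The total of titled WT replicate 3 was 413589 FPKM. Round spermatid markers were also highest in titled KO replicate 2, at 628 FPKM. Neither the total nor these markers was tested as a part of the pattern.

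**Figure D5:**
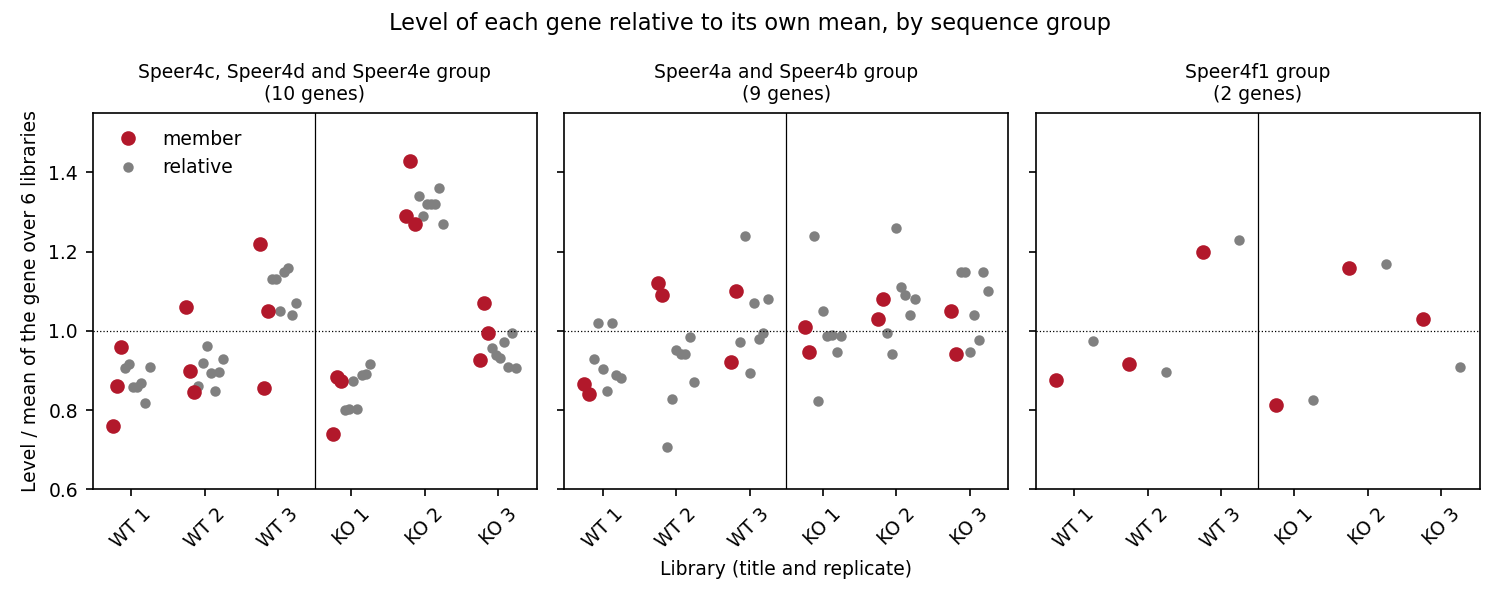
Level of each gene divided by its own mean over the 6 libraries (vertical axis) in each library (horizontal axis), for members (red) and relatives at 95% identity or more (grey), in 3 sequence groups. In the first panel all 10 genes lie at 1.27 to 1.43 in titled KO replicate 2, and 3 of the 9 genes of the second panel are highest there. Of the 10 genes, 9 are lowest of titled KO in replicate 1 and 9 highest of titled WT in replicate 3.

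The spread between libraries differed among the 8 genes. The within-group SD of log2(FPKM + 1) was 0.343 for Speer4c, larger than in 98.4% of tested genes. It was 0.237 for Speer3, 0.220 for Speer4f1, 0.208 for Speer4d and 0.204 for Speer4e. The median was 0.206 over the 8 members and 0.086 over all tested genes. Speer4b (0.142, larger than in 83.4% of tested genes), Speer2 (0.115, 72.4%) and Speer4a (0.096, 59.2%) had the smallest values of the 8. The pseudocount of 1 makes this SD smaller in low genes, and Speer4a had the lowest level, so the order depends partly on level. For Speer2 the CV was 2.8% in titled KO and 11.2% in titled WT. For Speer4c the CV was 28.2% in titled KO and 23.1% in titled WT, beside about 6.27% from counting alone at its lowest value. For Speer4a it was 2.35% and 14.0%, beside about 8.07% from counting. For Speer4d it was 24.7% and 2.64%, beside about 8.86%. With 3 libraries a CV is itself imprecise, and some lay below the counting value. Fragment numbers are approximate, since they use the longest annotated transcript. They were computed back from FPKM and may include reads shared between copies. Any error from dividing such reads is not in the counting values, above all in Speer4c, where few windows are unique.

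Sex-linked multicopy genes of spermatids in the same fit gave values to set beside these. Slxl1, an X-linked relative of Sly, was at 42.5, 51.2 and 42.6 FPKM in titled KO against 25.1, 27.2 and 31.3 FPKM in titled WT (adjusted p = 0.0137 by limma). Ssty2, of the Y long arm, was at 4.21, 5.06 and 4.54 FPKM against 6.90, 7.25 and 7.25 FPKM (limma adjusted p = 0.00721). Sly was at 0.281 to 0.409 FPKM in titled KO against 1.35 to 4.06 FPKM in titled WT, and Ssty1 was listed at 0 in titled KO and at 0.665 to 3.35 FPKM in titled WT (adjusted p = 0.158 and 0.218 by limma). Sly and Ssty1 passed the filter only through titled WT, where they were higher, so their p-values are no independent support for a difference. Slx was at 0.245 to 0.850 FPKM over the 6 libraries, under the filter. Whether the Speer genes differ from these genes in their response was not tested.

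The genes whose pattern over the 6 libraries was most like the summed Speer level were listed as a description. Outside the family and its relatives, Ccdc192 had the highest Pearson correlation on the log2 scale (r = 0.9905, n = 6 libraries). Zfp572 (0.9842), Acbd3 (0.9819), Tesk2 (0.9802) and BC024978 (0.9801) followed. All 5 were highest in titled KO replicate 2 and lowest in titled WT replicate 1, like the Speer sum. Their choice by correlation with that sum made such a match likely beforehand. The highest library was 1.08 times the lowest in Ccdc192 and 1.33 times in Zfp572, against 1.33 times in the Speer sum. Of 12922 genes compared, 35 (0.271%) had an r of at least 0.95.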

How the data were processed

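Total RNA of mouse testis was made into directional NEBNext Ultra II libraries, per the labels' protocols. The submitters' processing notes name HISAT2 and mm10, without versions. For the quantifier, gene annotation, strand setting and read length, nothing was given in the sources used here. Each deposited table pairs gene symbols with values taken as FPKM, scaled by the authors to transcript length and mapped fragments. The unit was read from the values, which are not whole and step with transcript length.

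Rows were summed per symbol, and each member had 1 row. Libraries were grouped by title. The filter kept 12952 genes whose mean reached 1 FPKM in either group. On log2(FPKM + 1), limma 3.58.1 (R 4.3.3, with trend and robust estimation) gave p-values, adjusted by Benjamini-Hochberg over all genes kept. The pseudocount of 1 makes changes of low genes look smaller. The fit was also run on simulated data whose errors were independent between genes. Near copies are not independent here, and the outcome of that run is not reported.

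Depth was estimated from genes with 1 annotated transcript, as the step at which most values times length cluster (within 0.02 on the log10 scale). Positions and transcripts were from GENCODE M21 and promoters from RefSeq. Coding sequences were aligned with BLAST 2.17.0. Relatives had been planned from protein alignments. No protein table was used here, so coding sequences were aligned to transcripts at 80% identity over 50% of their length.

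The members and lists were chosen with earlier results of these data known. Genes named were the members, other Speer symbols, Dlg5, the deleted gene, the 6 most abundant relatives, 5 sex-linked multicopy genes and the 5 genes most like the summed level. Gm1979, named for its unadjusted p, and the marker Lcn5 fall outside this rule and were chosen after their values were seen. Same-numbered libraries deviated from their group means with correlations of 0.0647, -0.129 and 0.0614, so replicate numbers were not taken as pairs. Alternatives were other pseudocounts (0.1 and 0.01), other filters, 3 scalings, the replicate number as a block, estimation that was not robust, the largest row per symbol and each library left out. The sums over sequence groups were added after the data were seen. Figures were drawn with matplotlib 3.10.9.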

Additional observations from a re-analysis of the deposited data

How the results depend on the processing

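Under each of the 16 alternatives, limma called 0 of the 8 Speer genes, and none of the 128 member estimates passed the threshold. The sign was not settled for 6 genes, in 18 of those estimates. Speer4f1 was at -0.005 with equal library totals. Speer4b was at 0.003 with upper-quartile scaling and 0.014 with median-of-ratios scaling. Leaving out single libraries moved Speer2 between -0.065 and 0.092, Speer3 between -0.045 and 0.221, Speer4b between -0.125 and 0.034, Speer4c between -0.242 and 0.121, Speer4e between -0.024 and 0.222 and Speer4f1 between -0.093 and 0.130. Speer4a and Speer4d were positive throughout, at 0.01 to 0.14 and 0.13 to 0.42 over the 16 alternatives. The summed level had a log2 ratio of 0.05, and leaving out single libraries moved it between -0.055 (titled KO replicate 2 out) and 0.117 (titled KO replicate 1 out). It was -0.039 with titled WT replicate 1 out. With the replicate number as a block, 0 members were called and the calls over all genes numbered 32 higher and 18 lower, against 102 and 47. No filter gave 56 higher and 32 lower, and median-of-ratios scaling 85 and 28. Leaving out single libraries gave 49 to 184 higher and 23 to 49 lower. The cause of these shifts was not tested. Libraries of 27600000 fragments or more give every member at least about 88.8 fragments, by an approximate estimate.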

Other observations

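A pair of Speer transcripts was listed at 0 in some libraries. The antisense gene Speer4cos, which shares 335 of the 1194 exon bases of Speer4c in GENCODE M21, was at 1.29, 1.90 and 1.48 FPKM in titled KO replicates 1, 2 and 3. It was at 1.02 FPKM in titled WT replicate 1 and listed at 0 in replicates 2 and 3. The groups did not overlap, and limma did not call it (log2 fold change 1.01, SE 0.31, unadjusted p = 0.0189, adjusted p = 0.256). Speer4cos passed the filter only through titled KO, at a mean of 1.56 FPKM against 0.341 FPKM in titled WT. Its fold change and p-values are therefore no independent support for a difference. No source used here tells whether counting used strand. Whether reads of Speer4c and Speer4cos were told apart was not tested. The pseudogene Speer8-ps1 was at 1.56 FPKM in titled KO replicate 1 and 1.33 FPKM in titled WT replicate 1, and listed at 0 in the other 4 libraries. Its RefSeq position, chr5:14945294-14978541 of GRCm38.p6, overlaps that of Gm10354 in GENCODE M21, chr5:14974113-14978935. Gm10354 was at 16.2 to 26.6 FPKM. Speer6-ps1 was at 0.390 to 0.830 FPKM over the 6 libraries, under the filter.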
